A study of Rattus norvegicus with 6 samples.

Results

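rno-miR-320-3p, rno-miR-484, rno-miR-877 and rno-miR-1224 (written below without the prefix for rat), miRNAs whose precursors are known to be made without the nuclear enzyme Drosha, were examined in the hypothalamic arcuate nucleus (ARC) of rats after nerve injury. They were taken by hairpin name, with any arm accepted, and 4 of the 562 mature miRNAs listed for each library belonged to these hairpins, 1 row each. The files hold 3 libraries from sham-operated rats, in which the nerve was exposed but not tied, and 3 from rats with chronic constriction injury of the infraorbital nerve (CCI-ION), in which loose silk ligatures were placed around the left nerve. All 6 libraries are from Sprague-Dawley rats of 8 to 10 weeks, with ARC tissue taken on Day 14 after either operation, and the paper used male rats unless it says otherwise. The study's text gives more rats per group for its miRNA heatmap than there are libraries, and how rats relate to libraries, or whether they were pooled, is not given in the sources used here, so n counts libraries and the p-values measure the spread between them. Whole ARC tissue mixes several cell types, and in such bulk RNA fewer cells of a type and less RNA per cell cannot be told apart.

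Most miRNAs are released by a pair of cuts, first from the primary transcript by Drosha in the nucleus and then from the hairpin by Dicer in the cytoplasm. The precursors of miR-320 and miR-484 skip the first cut, because transcription starts at the first base of the hairpin, which keeps the methylguanosine cap and leaves the nucleus by the exportin CRM1. miR-877 and miR-1224 come from mirtrons, short introns that the spliceosome cuts out and that fold into a hairpin for Dicer after the lariat is opened. In the RefSeq genes of assembly GRCr8, Mir877 lay inside Abcf1, which encodes an ABC-F protein of translation initiation, and Mir1224 lay inside Vwa5b2, on the same strand as that gene. Mir484 lay before the start of Nde1, a dynein regulator of neural progenitors, on its strand, and Mir320a lay next to Polr3d, a subunit of RNA polymerase III.

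Mature sequences of 3 of the 4 miRNAs were matched in RefSeq (GRCr8), and they are shown with those of miR-702-3p and miR-3102, other mirtron products of the ARC libraries, because the mirtron products differ in base composition. The seed, bases 2 to 8, is in capitals.
miR-484: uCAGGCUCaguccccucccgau
miR-877: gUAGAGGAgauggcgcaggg
miR-1224: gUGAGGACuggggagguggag
miR-702-3p: uGCCCACCcuuuaccccacucca
miR-3102: cUCUACUCccugccccagcca
miR-484 maps to chr10:1394915-1394936 (minus strand), miR-877 to chr20:2816284-2816303 (plus strand) and miR-1224 to chr11:93811355-93811375 (minus strand). miR-877 and miR-1224 consisted of 80.0% and 81.0% A and G, which ranked 4 and 3 among the 512 listed miRNAs with a sequence, against a median of 47.8%. miR-702-3p and miR-3102 were rich in the other bases, with 78.3% and 76.2% C and U against a median of 52.2%. Arms of 1 mirtron differed as well: miR-702-5p, from the first base of its hairpin as miR-877 and miR-1224 are, had 66.7% A and G. miR-702-3p spans bases 81 to 103 of the same hairpin of 107 bases. miR-484, which is no mirtron, had 68.2% C and U. All 3 seeds differed from each other, and among the listed miRNAs with a sequence only miR-344a-5p shared one, that of miR-484. miR-344a-5p stood at 29.4 ± 7.18 (sham) and 28.4 ± 9.95 (CCI-ION; SD, n = 3 each) normalized counts, read counts scaled for library size.

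The hairpins show where the members' ends come from. For the mirtrons the first 2 and last 2 bases, the ends of an intron, are in capitals, and for miR-484 the mature miRNA is.
Mir877: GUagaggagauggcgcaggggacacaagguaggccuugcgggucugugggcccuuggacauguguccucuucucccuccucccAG
Mir1224: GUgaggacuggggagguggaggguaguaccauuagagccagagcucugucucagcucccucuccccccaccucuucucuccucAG
Mir484: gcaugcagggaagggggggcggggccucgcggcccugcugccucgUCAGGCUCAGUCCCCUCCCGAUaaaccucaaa
These hairpins lie at chr20:2816284-2816368, chr11:93811291-93811375 and chr10:1394905-1394981. Both mirtron hairpins were 85 bases long, and their mature miRNA began at the first base. In contrast, the 22 bases of miR-484 began at base 46 of a hairpin of 77 bases. Of the 419 rat hairpins in the RefSeq table, 4 (0.955%) started with GU and ended with AG on the strand of the hairpin, and 6 (1.43%) carried a mature miRNA from their first base. Both features together were held by 2 hairpins, Mir877 and Mir1224. Hairpin ends are set by the annotation, so this describes the reference and not the libraries.

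Each deposited value, a normalized count in what follows, is the read count of a mature miRNA over the size factor of its library. Values of single libraries are given in the order of replicates 1, 2 and 3. Reads of listed miRNAs numbered 11115049, 13611671 and 14313839 in the sham libraries and 11297551, 8628309 and 9586078 in the CCI-ION libraries. Listed miRNAs at 0 numbered 28, 29 and 24 in the sham libraries and 31, 48 and 44 in the CCI-ION libraries. The part of depth in the changes was not tested. In each of the 6 libraries the smallest value above 0 was worth 5 reads. These read numbers were worked out from the steps between the deposited values, and they hold only if the step found is 1 read. Size factors ran from 0.821 to 1.20. The marker miRNAs of neurons were abundant, with all 5 found and summed to 1829530 to 2029010 normalized counts across sham libraries against 1348240 to 1743090 across CCI-ION libraries. miR-9a-5p (mean 1320010) made up most of that sum, with a log2 fold change, CCI-ION to sham, of -0.17. Those of miR-128-3p, miR-124-3p, miR-138-5p and miR-137-3p were -0.91, -0.78, -0.45 and -1.26. Sums for oligodendrocytes (2 of 2 markers) were 9157 to 14020 in sham and 7133 to 7612 in CCI-ION libraries, those for neuroendocrine cells (2 of 2) 1903460 to 3109020 and 836635 to 1393320, and those for microglia and immune cells (4 of 4) 2471 to 3097 and 1896 to 2333. The neuroendocrine sum was almost all miR-7a-5p (mean 1813040, log2 fold change, CCI-ION to sham, -1.04). Its other marker, miR-375-3p (mean 4218), went the other way, at 0.58. In the microglia and immune list, miR-223-3p, miR-142-5p and miR-142-3p had means of 66.6, 88.8 and 30.5, so miR-150-5p made up most of the sum. The log2 fold changes of those 3 were 0.95, 0.47 and -0.84. The sum of the vessel wall and endothelium list (4 of 4) was higher, at 80232 to 105934 in sham and 151501 to 165454 in CCI-ION libraries. In that list miR-143-3p, miR-145-5p and miR-126a-3p had log2 fold changes of 1.11, 0.85 and 0.44, and miR-126a-5p had -0.91. The sums of erythrocyte markers (3 of 4 matched, 2837 to 3798 and 2898 to 3660), choroid plexus and ependyma (4 of 4, 63746 to 87470 and 82374 to 105063) and skeletal muscle (3 of 3, 91.4 to 146 and 95.8 to 111) overlapped between groups. Within the erythrocyte list miR-486 (mean 2990) carried the sum, with a log2 fold change of -0.08. miR-451-5p (mean 311), also of that list, changed by 1.07 and was higher in every CCI-ION library than in any sham library. miR-144-5p (mean 4.11) changed by -1.12. In the limma test described below, 1 neuron, 1 oligodendrocyte and 2 vessel wall markers had an adjusted p under 0.05. The other lists held none, and 6.85% of all miRNAs tested had one. No marker found was at 0 in all libraries, and the part of the markers in the values below was not tested.

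None of the 4 Drosha-independent miRNAs passed the test between CCI-ION and sham rats. Their log2 fold changes, CCI-ION to sham, lay between -0.12 and 0.20 with a median of 0.01, beside a median of -0.01 over the 551 other miRNAs tested. Higher mean values in CCI-ION rats were found for miR-320-3p and miR-484 and lower ones for miR-877 and miR-1224. Differences were tested two-sided with limma after taking log2(normalized count + 1), and p-values were adjusted by Benjamini and Hochberg's method over the 555 miRNAs whose mean was 1 or more. Of all miRNAs, 6.85% were called at an adjusted p under 0.05, 3.42% as higher and 3.42% as lower after injury. An unadjusted p under 0.05 was reached by 33% of them and by 0 of the 4. A fold change on this scale understates that of low miRNAs, which matters little here because each of the 4 had at least 114 reads in each library.

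miR-320-3p was the most abundant of the 4, at rank 94 of the 562 miRNAs. Only its 3' arm is a member, and the cap on such precursors is known to hinder loading of the 5' arm into Argonaute. The sham libraries held 7128, 6281 and 6762 normalized counts of it, and the CCI-ION libraries held 7892, 8080.4 and 7231. Every CCI-ION library was therefore above every sham library, with the lowest CCI-ION value, 7231, close to the highest sham value, 7128. Among all miRNAs tested, 40.7% had groups that did not overlap, 19.5% with the CCI-ION group higher. The summed vessel wall markers were likewise higher in every CCI-ION library, although miR-126a-5p of that list had a log2 fold change of -0.91. The sums of the neuron, neuroendocrine, oligodendrocyte and immune lists were lower in every CCI-ION library than in any sham library. The part of these markers in the values of miR-320-3p was not tested. Group means were 6724 ± 425 for sham and 7734 ± 446 for CCI-ION (SD, n = 3 each). On the log2 scale, the fold change was 0.20 (standard error 0.11, 95% interval -0.08 to 0.48, adjusted p = 0.249 from limma), and the difference did not pass the test. Replicates were close together: the within-group SD of miR-320-3p on the log2 scale was 0.088, lower than that of nearly all miRNAs (percentile 5.23), with a median of 0.181 for the 360 other miRNAs with a mean of at least 100. Scaled instead by the total of listed reads, as CPM, miR-320-3p stood at 561, 555 and 561 in the sham libraries against 751, 769 and 701 after injury. On this total-count scale the log2 fold change was 0.40 (adjusted p = 0.0660 from limma), while the median of the other miRNAs moved to 0.17, so that miR-320-3p stood 0.24 above it, against 0.22 on the deposited scale. With upper-quartile scaling the direction turned, to -0.13 on the log2 scale (limma, adjusted p = 0.482), and the median of the other miRNAs was -0.34.

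miR-484 was the least abundant member, at rank 331, and is known as a regulator of the mitochondrial fission protein Fis1. Its normalized counts were 130.3, 147 and 192 across the sham libraries and 149, 162 and 179.8 across the CCI-ION libraries, from 114 to 228 reads. The CCI-ION libraries all fell within the range of the sham libraries. Means were 157 ± 32.0 for sham and 164 ± 15.5 for CCI-ION (SD, n = 3 each), with a log2 fold change of 0.08 (standard error 0.18, 95% interval -0.37 to 0.53, adjusted p = 0.791 from limma). Without sham replicate 1, its lowest library, the log2 fold change was -0.04, and without sham replicate 3 it was 0.23.

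miR-877, from the Abcf1 mirtron, was at rank 275. The sham libraries, at 402, 422 and 403 normalized counts, were close together, and the CCI-ION libraries stood at 378, 477 and 338. The CCI-ION libraries lay on both sides of the sham libraries, and group means were 409 ± 10.9 for sham and 398 ± 71.8 for CCI-ION (SD, n = 3 each). The difference came to -0.05 as log2 fold change (standard error 0.16, 95% interval -0.44 to 0.34, adjusted p = 0.831 from limma), and 8.29% of the miRNAs tested had a smaller one in size. miR-1224, from the Vwa5b2 mirtron, was at rank 155, with 2459, 2840.1 and 2849 normalized counts across the sham libraries against 3015, 2540.0 and 2035 across the CCI-ION libraries. The highest and the lowest of its 6 values were both in CCI-ION libraries. Sham and CCI-ION means were 2716 ± 222 and 2530.0 ± 491 (SD, n = 3 each), with a log2 fold change of -0.12 (standard error 0.18, 95% interval -0.56 to 0.33, adjusted p = 0.665 from limma). Both mirtron products were lowest in CCI-ION replicate 3, as were 22% of all miRNAs tested. Without that library the log2 fold changes were 0.05 for miR-877 and 0.03 for miR-1224.

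**Figure D1:**
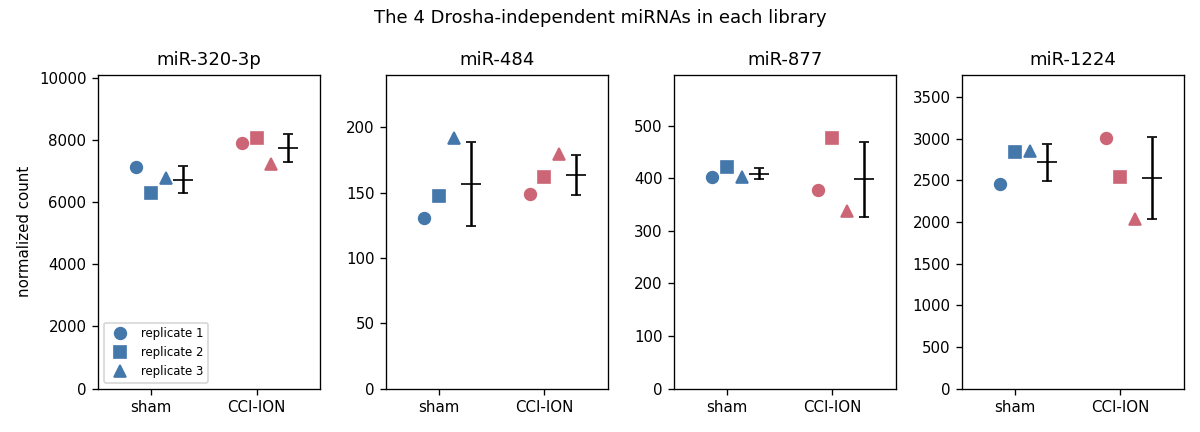
Normalized counts (y axis, from 0) of the 4 miRNAs in each of the 3 sham and 3 CCI-ION libraries, with replicates 1, 2 and 3 as circles, squares and triangles and the group mean with its SD in black. For miR-320-3p the CCI-ION libraries, 7231 to 8080.4, lay above the sham libraries, 6281 to 7128, and for the other 3 miRNAs the groups overlapped.

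On the deposited scale, all 4 of the members' 95% intervals lay within 1.5-fold in either direction, a limit chosen after the values were seen, as did those of 23.2% of all miRNAs tested and of 31.6% of the 364 with a mean of at least 100. For comparison, the smallest log2 fold change that passed the threshold anywhere was 0.50 in size. The log2 fold changes moved with the scaling, to -0.38 for miR-877 and -0.45 for miR-1224 with upper quartiles and to 0.40 for miR-320-3p with total counts, and the limit of 1.5-fold was read on the deposited scale only. The middle 50% of the other miRNAs ran from -0.42 to 0.37, and all 4 members lay inside it.

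**Figure D2:**
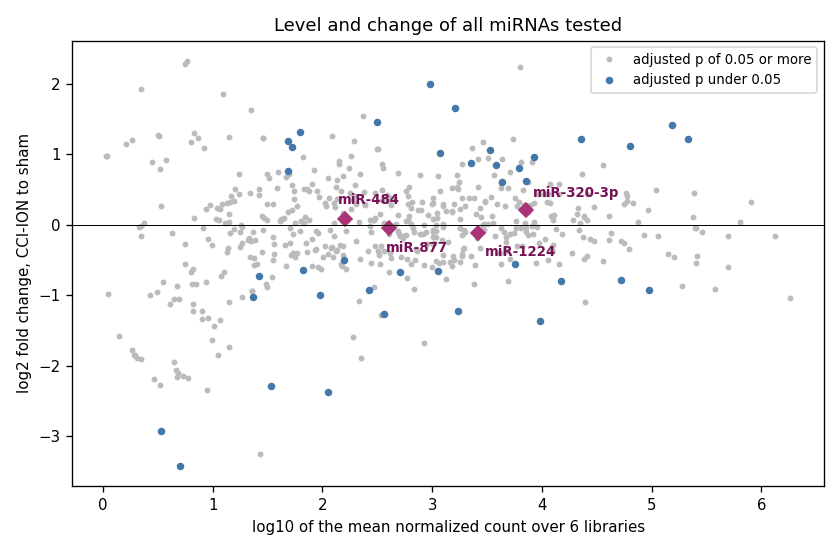
Log2 fold change, CCI-ION to sham (y axis), against log10 of the mean normalized count over the 6 libraries (x axis) for the 555 miRNAs tested. Points in blue passed an adjusted p of 0.05, and the 4 Drosha-independent miRNAs, as diamonds, lay between -0.12 and 0.20, among the grey points.

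The order of the 4 levels was the same in every library, miR-320-3p first, then miR-1224, miR-877 and miR-484, and no value of a miRNA overlapped those of the next. The 3 members with a sequence are 20 to 22 bases long, and levels were compared without division by length, although capture of RNA ends can differ between sequences. The labels name a TruSeq RNA kit, which is not made for small RNA, and how the miRNA libraries were built is not given in the sources used here. Ratios of 2 members in the same library do not depend on the size factors. The level of miR-320-3p was 54.7, 42.7 and 35.2 times that of miR-484 in the sham libraries, against 53.0, 49.9 and 40.2 times after injury. The difference of the log2 ratio was 0.12 (exact permutation test, two-sided p = 0.7, adjusted 0.8 over 2 ratios; n = 3 each), and the smallest p this design allows is 0.1. The ratio of miR-877 to miR-1224 was 0.164, 0.148 and 0.141 in the sham libraries and 0.125, 0.188 and 0.166 after injury, a difference of 0.06 on the log2 scale (exact permutation test, two-sided p = 0.8, adjusted 0.8; n = 3 each). In both cases the groups overlapped, and 1 library could turn the direction: without sham replicate 3 the first difference was -0.03, and without CCI-ION replicate 2 the second was -0.06.

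The list of mirtrons apart from the members had 3 rows, and 0 of them passed the threshold. miR-702-3p, from an intron of Plod3, a lysyl hydroxylase of collagen, was read at 2043, 1954 and 2339.8 normalized counts in the sham libraries and at 1914, 1537 and 1348 after injury, with a log2 fold change of -0.41 (95% interval -0.83 to 0.01, adjusted p = 0.159 from limma). miR-3102 was read at 224, 269 and 271 in the sham libraries and at 203, 209 and 139 after injury, with a log2 fold change of -0.49 (95% interval -0.99 to 0.01, adjusted p = 0.159 from limma). For both, each CCI-ION library was below each sham library, as for 21.3% of all miRNAs tested. miR-702-5p had 6.86 to 12.6 normalized counts, a log2 fold change of 0.23 and an adjusted p of 0.486 from limma, with overlapping groups. With upper-quartile scaling, which moved the median of the other miRNAs to -0.34, the log2 fold change of miR-702-3p was -0.74 (adjusted p = 0.0462 from limma), and with total counts it was -0.21 (adjusted p = 0.406 from limma). Upper quartiles gave 117 calls among all miRNAs, 7.69% of them higher in CCI-ION rats. Without CCI-ION replicate 3 the log2 fold changes were -0.30 for miR-702-3p and -0.30 for miR-3102.

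Within a library, miR-702-3p stood at 0.831, 0.688 and 0.821 times the level of miR-1224 under sham conditions and at 0.635, 0.605 and 0.662 times after injury. miR-3102 stood at 0.557, 0.637 and 0.674 times the level of miR-877 under sham conditions and at 0.537, 0.439 and 0.411 times after injury. Both ratios were lower in every CCI-ION library than in any sham library, and so was that of miR-3102 to miR-1224, whereas that of miR-702-3p to miR-877 overlapped, at 4.64 to 5.81 in sham and 3.22 to 5.07 in CCI-ION libraries. These ratios were chosen after their values were seen and carry no test. How often other pairs of miRNAs have ratios that do not overlap was not counted, and 40.7% of single miRNAs had groups that did not. The groups of miR-702-3p and of miR-3102 already did not overlap, so these ratios are no separate result.

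**Figure D3:**
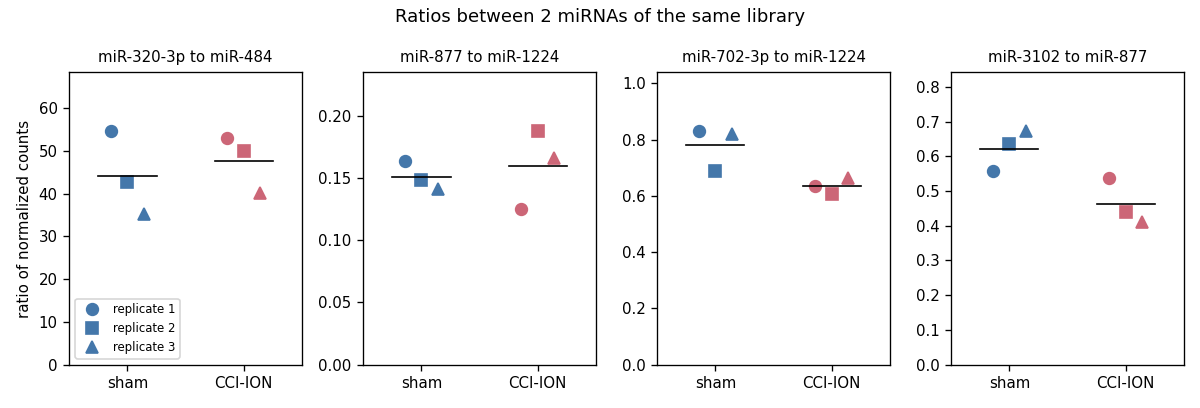
Ratio of the normalized counts of 2 miRNAs in the same library (y axis, from 0) for 3 sham and 3 CCI-ION libraries, with the group mean as a line and replicates 1, 2 and 3 as circles, squares and triangles. The ratios between members overlapped between groups, and those of miR-702-3p to miR-1224, 0.688 to 0.831 in sham and 0.605 to 0.662 in CCI-ION, and of miR-3102 to miR-877 did not. The ratio of miR-702-3p to miR-877, which overlapped, and that of miR-3102 to miR-1224, which did not, are not drawn.

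miRNAs cut from small nucleolar RNAs also skip Drosha. For miR-1839, from the Cajal body RNA Scarna15, the 5p arm averaged 5832 ± 618 (sham) and 5379 ± 454 (CCI-ION) normalized counts, and the 3p arm 119 ± 8.91 and 113 ± 16.2 (SD, n = 3 each), with log2 fold changes of -0.11 and -0.08. For miR-664, the 3p arm had 2149 ± 153 and 1707 ± 247 and miR-664-2-5p 328 ± 12.7 and 227 ± 42.5 (SD, n = 3 each), with log2 fold changes of -0.34 (adjusted p = 0.174) and -0.54 (adjusted p = 0.104, both from limma). Of the 4 rows 0 passed the threshold, while miR-664-2-5p had an unadjusted p of 0.0207, beside 33% of all miRNAs with one under 0.05. The groups of both miR-664 rows did not overlap, with CCI-ION lower, as for 21.3% of all miRNAs. With upper-quartile scaling, and its 117 calls among all miRNAs, both miR-664 rows passed (adjusted p = 0.0423 and 0.0351 from limma), whereas with total counts the log2 fold changes were -0.14 and -0.34 (adjusted p = 0.524 and 0.215 from limma). CCI-ION replicate 3 was the lowest library for all 4 snoRNA-derived rows and for all 4 mirtron rows above 100 normalized counts, beside 22% of all miRNAs. These snoRNA-derived rows are arms of miR-1839 and miR-664 only, so they are not separate cases. The mirtron row under 100, miR-702-5p, was lowest in sham replicate 1 (6.86), and miR-320-3p and miR-484 were lowest in sham libraries. Without CCI-ION replicate 3 the log2 fold changes were -0.23 for miR-664-3p and -0.38 for miR-664-2-5p. miR-451-5p, also in the erythrocyte marker list above, needs Drosha but is cut by Argonaute 2 in place of Dicer. It averaged 204 ± 58.0 (sham) and 419 ± 53.3 (CCI-ION) normalized counts (SD, n = 3 each). The difference was 1.07 on the log2 scale, with an adjusted p of 0.0649 from limma. Its groups did not overlap, with CCI-ION higher, as for 19.5% of all miRNAs. It passed in 4 of 16 alternatives (limma), with adjusted p of 0.0410 by total counts, 0.0395 and 0.0252 under both stricter filters and 0.0240 with the intensity trend.

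**Figure D4:**
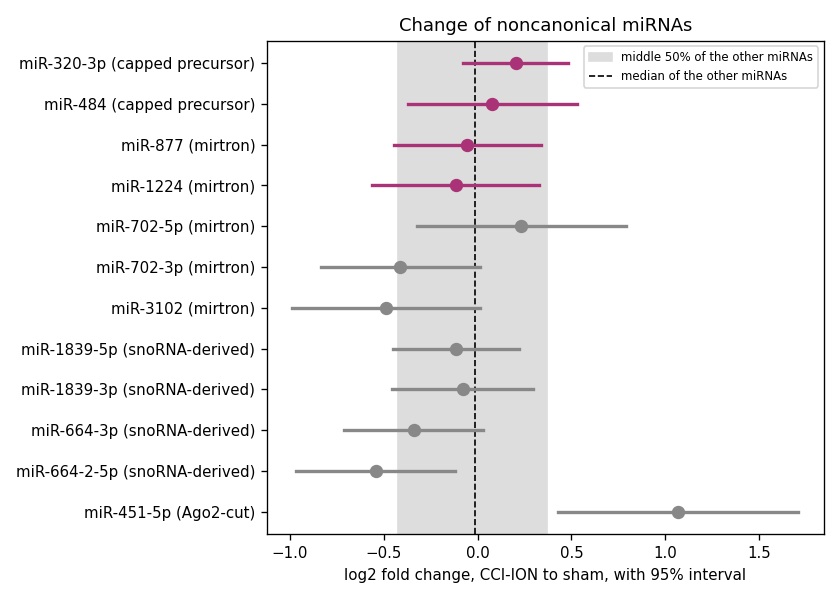
Log2 fold change, CCI-ION to sham, with its 95% interval (x axis) for the 4 Drosha-independent members in purple and 8 other noncanonical rows in grey, with the median (dashed) and the middle 50% (shaded) of the other miRNAs. The intervals of the 4 members all include 0, and among the grey rows those of miR-664-2-5p and miR-451-5p do not.

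The miRNAs whose values moved most like each member over the 6 libraries were looked up. Likeness was taken as Pearson's r of log2(normalized count + 1) with the 481 other miRNAs above 0 in all libraries, and it is given as a description, since all points share the 6 libraries and their size factors. The highest of 481 values of r over 6 libraries are also large in part by selection. The 2 most alike to miR-320-3p were miR-361-3p (r = 0.99), with a similar mean of 7543 normalized counts, and miR-423-5p (r = 0.94). Both had higher values in CCI-ION rats (log2 fold changes 0.17 and 0.33) and passed no threshold (adjusted p = 0.309 and 0.144 from limma). For miR-484 they were miR-133a-3p (r = 0.96), which is known from muscle, and miR-3550 (r = 0.95), for miR-877 miR-3547 (r = 0.99) and miR-298-5p (r = 0.96), and for miR-1224 miR-329-3p (r = 0.96) and miR-138-1-3p (r = 0.94). The log2 fold changes of these 6 lay between -0.36 and 0.11. Among the 4 members themselves, r lay between -0.21 and 0.12 for 5 pairs and was 0.41 for the mirtron pair miR-877 and miR-1224.

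The neighbours of each member in the order of levels were also read. Next to miR-320-3p in mean were miR-21-5p (7484 normalized counts, log2 fold change 0.60) and miR-337-5p (7229, -0.10), and next to miR-1224 were miR-200a-3p (2626, 0.94) and miR-192-5p (2606, 0.53). Beside miR-877 stood miR-130a-3p (405, -0.14) and miR-34a-5p (400.4, -0.67), and beside miR-484 stood miR-344i (162, -0.09) and miR-466c-5p (156, -0.50). Of these 8 only miR-466c-5p passed the threshold (adjusted p = 0.0497 from limma).

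Base composition was set against the changes because the members are rich in G and C, with 63.6% in miR-484, 65.0% in miR-877 and 66.7% in miR-1224 against a median of 47.8%. The 82 miRNAs with at least 60% G and C had a median log2 fold change of -0.05, with the middle 50% from -0.39 to 0.26, and the 96 tested with under 40% had a median of -0.30. Across 507 miRNAs Pearson's r between G and C content and log2 fold change was 0.14. miRNAs are not independent replicates, and this r is a description. The log2 fold changes of the 3 members with a sequence, -0.12 to 0.08, lay inside the middle 50% of their composition class.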

How the data were processed

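RNA of ARC tissue was sequenced, and mature miRNAs listed, from 3 sham and 3 CCI-ION libraries, grouped by the sample titles. The authors deposited, for each library, 1 signal value per mature miRNA, which by its steps is a read count divided by a size factor. cutadapt 1.14, Bowtie 1.1.1 and build rn6 are named in the submitters' processing notes, and the counting, annotation and normalization are not given in the sources used here. Reads were worked out from the values, 100% of which were whole multiples of 1 step per library. The tolerance was 0.01 of a read or, for large values, a small share of the value, which the largest values meet by construction. The smallest value comes to 5 steps, so that 1 step as 1 read is inferred. Normalized values were tested as log2(value + 1) with limma 3.58.1 (R 4.3.3), with an adjusted p under 0.05 as threshold; count tests were not used. The limma step was tested on simulated data. Ratios were compared by exact permutation. Sequences came from RefSeq (GRCr8), which matched 512 of the 562 miRNAs and 3 of the 4 members. The build differs from rn6, so reference positions were used only to locate sequences. The members, lists and tests were chosen with earlier results of these data known. By rule, the text names members, other noncanonical miRNAs, seed sharers, the 2 miRNAs most alike each member and its neighbours in level. Some cell type markers are also named, to show which of them carried a sum. In the neuron list, miR-9-5p was matched to miR-9a-5p. Replicate libraries differed by more than sampling noise.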

Additional observations from a re-analysis of the deposited data

How the results depend on the processing

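In 16 alternatives 0 of the 4 members passed the threshold, and with the pseudocount of 0.1 their log2 fold changes kept their sign. The intensity trend and the filters leave these log2 fold changes as they are by construction. Scaling moved all miRNAs together. With total counts the log2 fold changes were 0.15 for miR-877, 0.084 for miR-1224, 0.087 for miR-1839-5p and 0.12 for miR-1839-3p, and with upper quartiles -0.13 for miR-320-3p, -0.25 for miR-484 and -0.069 for miR-702-5p, all turned in sign, while the median of the other miRNAs was 0.17 and -0.34. Relative to that median, in 4 scalings, miR-320-3p stood 0.21 to 0.24 higher, miR-484 0.09 to 0.11 higher, miR-877 at -0.04 to -0.02 and miR-1224 at -0.11 to -0.08. All miRNAs past the threshold numbered 38 (50% higher), 117 with upper quartiles (7.69% higher), 51 with total counts (82.4% higher), 49 without the most abundant miRNA (61.2% higher), 28 with TMM (35.7% higher), 63 with a mean of at least 10, 96 where each library had 10 reads or more, 88 with the trend and 3 with the replicate block.

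Leaving out each library in turn gave 7 to 42 calls. Log2 fold changes then ran from 0.15 to 0.25 for miR-320-3p, -0.044 (without sham replicate 1) to 0.23 for miR-484, -0.19 to 0.055 for miR-877, -0.25 to 0.030 for miR-1224 and -0.15 to 0.044 for miR-1839-3p (the last 3 turned without CCI-ION replicate 3), and the ratio differences from -0.027 (without sham replicate 3) to 0.29 (miR-320-3p to miR-484) and -0.064 (without CCI-ION replicate 2) to 0.23 (miR-877 to miR-1224). Adjusted p of the members over the alternatives was 0.0660 to 0.525 for miR-320-3p, 0.350 to 0.984 for miR-484, 0.167 to 0.997 for miR-877 and 0.171 to 0.903 for miR-1224 (limma). Same-numbered libraries deviated together with correlations of 0.02, 0.21 and 0.02. Libraries of different numbers were not compared in this way, so these values do not settle whether libraries are paired by number. The replicate block leaves the members' log2 fold changes, 0.20, 0.08, -0.05 and -0.12, as they are by construction, and gave adjusted p of 0.368 to 0.833 (limma). For the ratios, exact sign flips within replicate numbers gave p = 0.5 and 1, and 0.25 is the smallest they can give. The count tests edgeR and DESeq2 were not run: the deposited values are normalized, and the reads worked out from them are inferred. The cause of these shifts was not tested.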
